A study of Mus musculus with 6 samples.

Results

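The genes described here are 39 named mouse genes of glycolysis and of the response to low oxygen, among 22032 gene identifiers measured by RNA sequencing of chondrocytes, the cells of cartilage. They were listed by name, with earlier results of these data known: 25 encode glucose transporters, glycolytic enzymes and their regulators, lactate enzymes and transporters and pyruvate dehydrogenase kinases, and 14 encode oxygen-sensing proteins or targets of the hypoxia-inducible factors (HIF). All 39 were found by their current symbol, and all 39 were among the 13125 genes tested, those whose mean level reached 1 TPM, a measure of transcript abundance scaled to transcript length and to the total of the sample.

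The cells came from mouse knee cartilage at 2 stages, with 3 samples per stage that the series describes as biological replicates. The embryonic samples were taken at embryonic day 16.5, a stage the sample labels write in weeks, and no strain or sex is given for them. The adult samples were from male B6 mice aged 2 months. At both stages the cells were sorted by flow cytometry as BMPR1B+ cells (BMPR1B is a receptor for bone morphogenetic proteins) that lacked alkaline phosphatase and lineage markers, named for the adult mice as CD31, CD45 and Ter119 for endothelial, blood and erythroid cells. The paper states that mouse cartilage was digested for hours before the sort, and the part of this step in the levels below was not tested. No mutation or treatment is named for any sample. Because the strain and sex of the embryos are not given, effects of stage, strain and sex cannot be told apart. The number of animals behind each sample is not stated, so the p-values below measure the spread between these samples.

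Glycolysis splits glucose into pyruvate in the cytosol and yields ATP without oxygen. The pyruvate can be reduced to lactate and exported, or enter the mitochondria, where pyruvate dehydrogenase kinases restrain its oxidation. Cartilage has no blood vessels, and chondrocytes are known for a largely glycolytic metabolism and for their dependence on HIF-1 alpha, a transcription factor subunit that prolyl hydroxylases mark for degradation through the VHL protein when oxygen is present and that activates glycolytic genes when oxygen is scarce.

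All 8 chondrocyte markers averaged at least 10 TPM over the 6 samples, but their summed level was 21533 to 23096 TPM in embryonic and 8846 to 11850 TPM in adult cartilage. Of the 8, Sox9 and Comp rose, Acan did not pass the test (1018 to 1306 and 1265 to 2672 TPM; adjusted p = 0.0717), and 5 fell: Col2a1 (14154 to 15251 and 3166 to 7084 TPM), Col9a1 (1913 to 1946 and 27.2 to 64.3 TPM), Col11a2 (2663 to 2842 and 401 to 483 TPM), Hapln1 (541 to 604 and 345 to 355 TPM) and Matn3 (181 to 234 and 1.11 to 3.65 TPM). Markers of other cell types also moved with stage. The summed level of 8 osteoblast markers was 584 to 781 TPM in embryonic and 2766 to 4860 TPM in adult cartilage, that of 8 tendon and fibroblast markers 5472 to 6074 and 514 to 827 TPM, and that of 13 skeletal muscle markers 97.8 to 136 and 3.03 to 16.1 TPM, with Des at 46.0 to 50.6 TPM in embryonic cartilage and Myh2 at 0 in all. Within these lists the genes did not all move alike. Most of the osteoblast sum was Spp1 (553 to 714 and 2368 to 4376 TPM). Of the 8 osteoblast markers 5 were higher, Dmp1 was lower and 2 did not pass the test. Col3a1 (4518 to 5122 TPM) held most of the embryonic tendon and fibroblast sum, and of those 8 markers 5 were lower and 3 did not pass the test. Of the muscle markers 2 were lower, 4 did not pass the test and 7 were not tested. The 12 leukocyte markers summed to 10.2 to 13.7 TPM in embryonic cartilage and to 194, 19.0 and 121 TPM in adult samples 1, 2 and 3, with C1qa and Cd3e at 0. Of the 12, Cd68, S100a8 and S100a9 were higher, 4 did not pass the test and 5 were not tested. In adult samples 1, 2 and 3, S100a8 was at 36.39, 0 and 41.5 TPM and S100a9 at 78.35, 0 and 32.45 TPM, while Ptprc was at 2.29, 0 and 1.03 TPM. The 8 erythroid markers summed to 257 TPM in embryonic sample 1 and to 7.77 to 43.6 TPM in the other 5, with Hbb-y at 0. The 8 endothelial and 7 adipocyte markers summed to at most 42.3 and 47.8 TPM, and Adipoq, Lep and Cfd were at 0. The 11 immediate early and heat shock genes summed to 3819 to 4478 TPM and 4078 to 5329 TPM. The part of these differences in the results below was not tested. In sorted bulk cells, fewer cells of a type and less RNA per cell cannot be told apart.

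Of the 39 genes, 15 were higher and 6 were lower in adult cartilage (adjusted p under 0.05, limma across all genes), and 18 did not pass the test. The 15 were 38.5% of the genes, against 23.9% of all genes tested that were higher in the adult, and the 6 were 15.4%, against 21.4% of all genes tested that were lower. The 3 adult values were all above the 3 embryonic values for 16 of the 39 genes, or 41.0% (30.7% of all genes tested), and all below for 8, or 20.5% (25.9% of all genes tested). The median log2 fold change (adult over embryonic, on the log2(TPM + 1) scale used throughout) was 0.11 over the 39 genes and 0.16 over all genes tested, and it was -0.25 over the 39 without adult sample 3. Rescaling between samples moved the median of all genes to between 0.03 and 0.25. Among the 25 genes of glycolysis, transport and lactate, 11 were higher and 2 lower, with a median of 0.40, while among the 14 oxygen-sensing genes and HIF targets 4 were higher and 4 lower, with a median of -0.16.

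**Figure D1:**
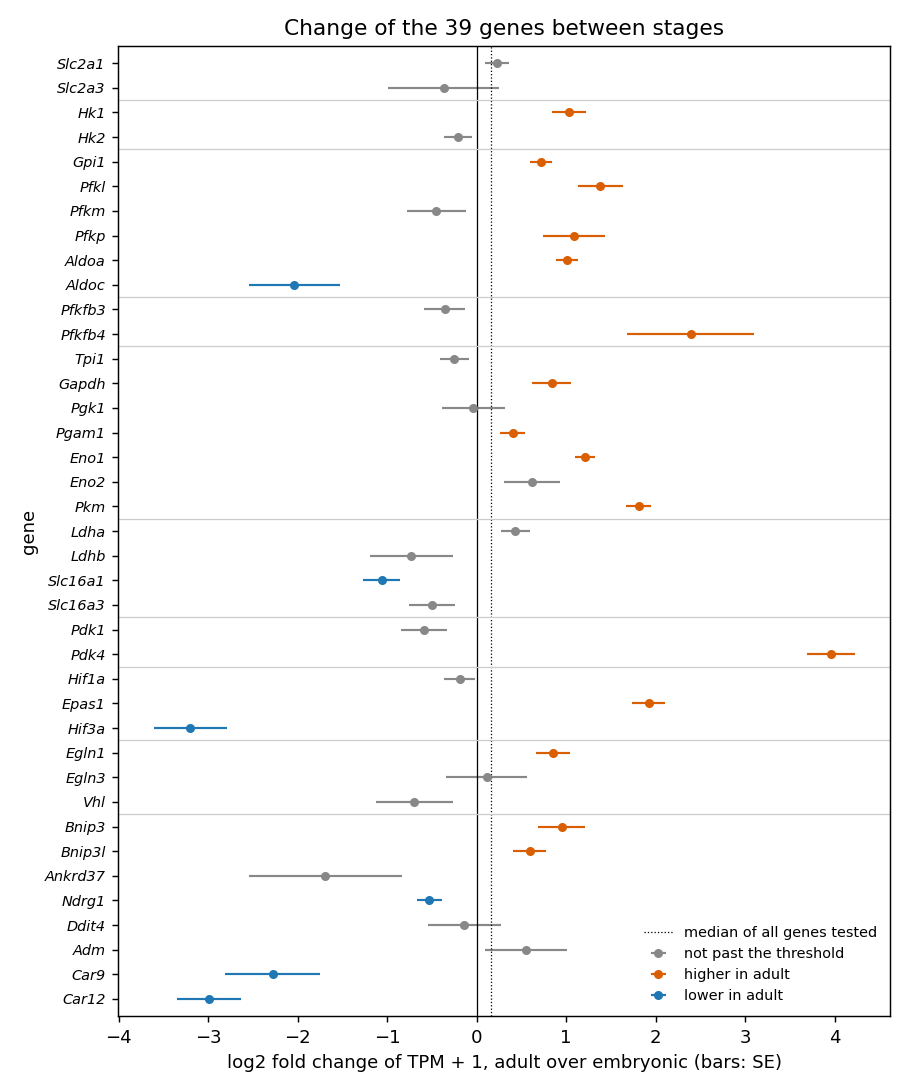
Log2 fold change (horizontal axis, adult over embryonic, on log2(TPM + 1)) of the 39 genes, ordered by role with grey lines between roles; points are estimates from 3 samples per stage, bars are standard errors, and colour shows whether the adjusted p was under 0.05 and in which direction. The estimates run from -3.20 (Hif3a) to 3.96 (Pdk4), and the dotted line marks the median of all genes tested, 0.16.

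The summed level of the glycolytic chain itself was higher in adult cartilage. Of the 39 genes, 15 encode enzymes of its 10 steps. They summed to 4020.02, 3448 and 3849 TPM in the 3 embryonic libraries and to 7611, 8072 and 6380 TPM in the 3 adult samples, a ratio of means of 1.95. Without Gapdh, the most abundant of them, the ratio was 2.00. Further genes of these steps were left out of the sums, among them Eno3 (mean 27.1 TPM in embryonic and 9.52 TPM in adult cartilage) and Adpgk (52.3 and 61.4 TPM). For 8 of the 10 steps the summed level of every adult sample was above that of every embryonic sample, the exceptions being triose-phosphate isomerase and phosphoglycerate kinase. Among single genes, 30.7% of all those tested had every adult value above every embryonic one. The gap was narrow for phosphoglycerate mutase (207.4 TPM in embryonic sample 1, 209.1 TPM in adult sample 1) and small for phosphofructokinase (121 and 139 TPM in the same samples). Together the 39 genes took 0.580%, 0.527% and 0.567% of all TPM in embryonic cartilage and 0.959%, 0.998% and 0.872% in adult cartilage.

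Neither gene for glucose entry passed the test. Slc2a1, which encodes the glucose transporter GLUT1, was at 247, 209.6 and 245 TPM in embryonic and 259.5, 313 and 252 TPM in adult cartilage. The adult values were all above the embryonic ones, but the log2 fold change of 0.23 ± 0.136 (SE) did not pass the test (adjusted p = 0.196). Slc2a3, which encodes the high-affinity transporter GLUT3, was low, at 0.868 to 4.60 TPM in embryonic and 0.551 to 3.64 TPM in adult cartilage, with an adjusted p of 0.655.

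Of the 2 hexokinases, which trap glucose by phosphorylation, only Hk1 passed the test. Hk1 was at 90.2, 65.3 and 71.8 TPM in embryonic and 126, 193 and 153 TPM in adult cartilage, a log2 fold change of 1.03 ± 0.194 (SE) with an adjusted p of 0.00280. Hk2, the form induced by HIF, was at 79.5, 68.3 and 70.6 TPM and at 63.8, 56.2 and 68.2 TPM, values that do not overlap but are close, with a log2 fold change of -0.21 (adjusted p = 0.285). Hk2 made up 49.2% ± 2.18 (SD, n = 3) of the summed hexokinase TPM in embryonic cartilage and 29.0% ± 5.75 (SD, n = 3) in adult cartilage.

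Upper glycolysis, which prepares glucose for splitting, held 4 genes that rose and 1 that fell among its 6, where 23.9% of all genes tested rose and 21.4% fell. Gpi1, the isomerase after hexokinase, was at 179, 192 and 179 TPM in embryonic and 326, 305 and 277 TPM in adult cartilage (log2 fold change 0.72 ± 0.119, SE; adjusted p = 0.00148). Aldoa (chr7:126795234-126800751, minus strand, GRCm38), the main aldolase, was at 559, 463 and 505 TPM and at 1009.95, 1110 and 954 TPM (1.01 ± 0.123, SE; adjusted p = 0.000289). The adult values of both genes stood clear of the embryonic ones and close together. Aldoc, the aldolase best known from brain, was the gene that fell: it was at 5.93, 1.83 and 4.38 TPM in embryonic cartilage and was listed at 0, 0.309 and 0.165 TPM in adult cartilage (adjusted p = 0.0111).

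The 3 phosphofructokinase genes, which encode the liver, muscle and platelet subunits of the committed step, held 2 that rose and 1 that did not pass the test. Pfkl was at 23.2, 16.1 and 13.8 TPM in embryonic and 43.1, 41.4 and 56.7 TPM in adult cartilage, with a log2 fold change of 1.38 ± 0.252 (SE) and an adjusted p of 0.00245. Pfkp, the most abundant subunit at both stages, was at 85.3, 75.8 and 74.8 TPM and at 86.6, 252 and 216 TPM, so adult sample 1 lay at the embryonic level and the other two adult samples far above it. Its log2 fold change was 1.09 ± 0.346 (SE) with an adjusted p of 0.0312, and the call was lost without any of embryonic samples 1, 2 or 3 or adult samples 2 or 3 (adjusted p = 0.0736, 0.0967, 0.0950, 0.102 and 0.106), as well as under median-of-ratios scaling (0.0513), with no filter on low values (0.0636) and without the trend of variance on level in limma (0.0798). Pfkm was at 8.61 to 15.1 TPM in embryonic and 7.24 to 9.47 TPM in adult cartilage and did not pass the test (adjusted p = 0.289). As a share of the 3 subunits, Pfkm was 11.2% ± 2.71 (SD, n = 3) before birth and 4.10% ± 2.37 (SD, n = 3) in adult cartilage, whose ranges did not overlap.

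Pfkfb3 and Pfkfb4 encode bifunctional enzymes that set the level of the main activator of phosphofructokinase. Pfkfb3 was at 42.4 to 65.6 TPM in embryonic and 31.0 to 48.3 TPM in adult cartilage (adjusted p = 0.243). Pfkfb4 was at 4.37, 0.343 and 8.46 TPM in embryonic and 12.8, 16.7 and 39.1 TPM in adult cartilage, with a log2 fold change of 2.39 ± 0.713 (SE) and an adjusted p of 0.0240. It varied more than any other of the 39 genes among the embryonic samples (SD 1.45 on the log2 scale), and its call was lost without embryonic sample 1 or 2 or adult sample 2 or 3 (adjusted p = 0.0532, 0.0572, 0.0505 and 0.0884), with no filter (0.0536) and without the trend (0.0508). Its share of the pair was 6.74% ± 5.42 (SD, n = 3) before birth and 33.9% ± 9.44 (SD, n = 3) in adult cartilage. This share leaves out Pfkfb2 (mean 4.91 TPM in embryonic and 10.7 TPM in adult cartilage) and Pfkfb1 (1.95 and 1.10 TPM).

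**Figure D2:**
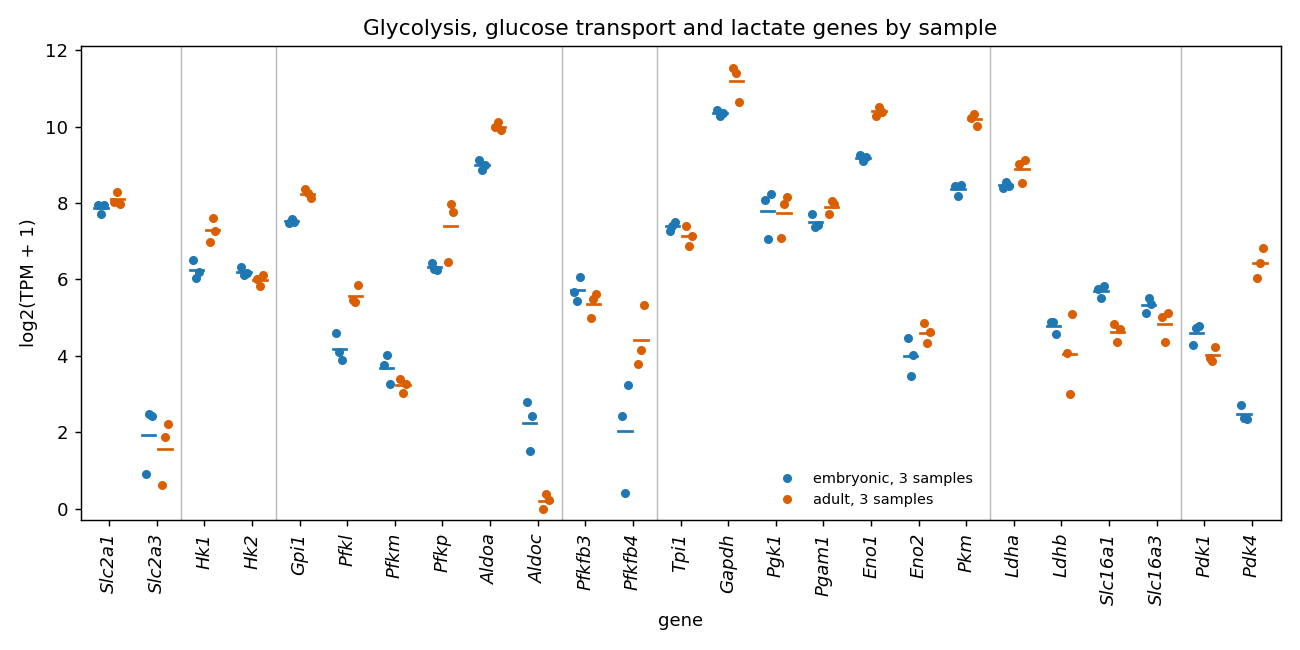
Level of the 25 glycolysis, glucose transport and lactate genes in each sample, as log2(TPM + 1) on the vertical axis; points are samples, short lines are the mean of 3 samples, and grey lines part the roles named in the text. Pkm and Eno1 lie in tight, separate groups by stage, Pfkp has adult sample 1 at the embryonic level, and Pgk1 has both stages mixed.

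Lower glycolysis, the part of the pathway that yields ATP, held the most abundant of the 39 genes, and 4 of its 7 genes rose while none fell. Of all genes tested, 23.9% rose and 21.4% fell, and 2 of the 4 calls (Gapdh and Pgam1, below) did not hold in every alternative. Pkm (chr9:59656368-59679375, plus strand), which encodes both muscle-type forms of pyruvate kinase, was at 350.0, 291 and 356 TPM in embryonic and 1197, 1295 and 1026 TPM in adult cartilage. Its log2 fold change of 1.81 ± 0.137 (SE; adjusted p = 2.2e-05) was the largest rise among the 15 genes of the chain. The splice forms of Pkm are summed in these gene-level values and were not separated. Eno1 (chr4:150236721-150248879, plus strand), the main enolase, was at 608, 550.4 and 584 TPM and at 1248, 1471 and 1326 TPM (1.21 ± 0.116, SE; adjusted p = 7.8e-05). By mean TPM, Pkm moved from rank 487 of all genes in embryonic to rank 81 in adult cartilage, and Eno1 from rank 248 to rank 67.

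Gapdh, the dehydrogenase of the pathway, often used as a reference gene for normalisation, was at 1376, 1234 and 1312 TPM in embryonic and 2961, 2692 and 1597 TPM in adult cartilage. The embryonic values had an SD of 0.08 on the log2 scale, while adult sample 3 lay between the embryonic samples and the other two adult samples. The log2 fold change was 0.84 ± 0.217 (SE; adjusted p = 0.0132), and without embryonic sample 2 or 3 the adjusted p was 0.0585 or 0.0519, and without the trend it was 0.0503. Pgam1, the mutase before enolase, was at 207, 165 and 172 TPM and at 209, 263 and 249 TPM (0.40 ± 0.145, SE; adjusted p = 0.0482). Its call was lost without embryonic sample 2 or 3 or adult sample 2 or 3 (adjusted p = 0.148, 0.140, 0.123 and 0.101) and also under median-of-ratios scaling (0.161), with no filter (0.0623), without the trend (0.139) and with the replicate number as a block (0.1).

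The other 3 genes of lower glycolysis did not pass the test. Tpi1, the triose-phosphate isomerase, was at 152 to 181 TPM in embryonic and 116 to 167 TPM in adult cartilage (adjusted p = 0.226). Pgk1, a textbook HIF target that catalyses the first ATP-yielding step, was at 271, 131 and 300.2 TPM and at 136, 252 and 285 TPM (log2 fold change -0.04; adjusted p = 0.927). In each stage a single sample of Pgk1 was low, embryonic sample 2 and adult sample 1, and the groups overlapped. Eno2, the neuronal enolase, was at 10.1 to 21.2 TPM and 19.1 to 27.9 TPM (adjusted p = 0.138).

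None of the 4 genes at the lactate end of the pathway rose, and 1 fell. Ldha, the lactate dehydrogenase subunit that favours lactate formation, was at 335, 376 and 347 TPM in embryonic and 522, 369 and 557 TPM in adult cartilage. Adult sample 2 lay within the embryonic range, and the log2 fold change of 0.43 ± 0.164 (SE) had an adjusted p of 0.0602, which became 0.00589 without adult sample 2. Ldhb, the heart-type subunit, was at 23.0 to 28.8 TPM in embryonic cartilage and at 16.0, 6.99 and 33.3 TPM in adult cartilage (adjusted p = 0.230, or 0.0302 without adult sample 3). Its share of the summed lactate dehydrogenase TPM was 7.07% ± 0.843 (SD, n = 3) before birth and 3.49% ± 1.95 (SD, n = 3) in adult cartilage.

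Slc16a1 (chr3:104638668-104658462, plus strand), which encodes the lactate transporter MCT1, fell. It was at 52.7, 44.5 and 55.5 TPM in embryonic and 27.6, 19.6 and 25.0 TPM in adult cartilage, with a log2 fold change of -1.06 ± 0.206 (SE) and an adjusted p of 0.00340. Slc16a3, which encodes MCT4, the transporter of lactate-exporting cells, was at 33.6, 45.1 and 40.2 TPM and at 31.7, 19.5 and 33.9 TPM (log2 fold change -0.50; adjusted p = 0.138). Both transporters together summed to 86.2 to 95.7 TPM in embryonic and 39.1 to 59.3 TPM in adult cartilage.

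Of the 2 pyruvate dehydrogenase kinases among the 39 genes, 1 rose and the other did not pass the test. Pdk4 (chr6:5483351-5496309, minus strand), known for its induction by fasting, glucocorticoids and FoxO factors, was at 5.52, 4.17 and 4.06 TPM in embryonic and 65.0, 84.6 and 112 TPM in adult cartilage. Its log2 fold change of 3.96 ± 0.272 (SE; adjusted p = 1.3e-05) was the largest rise of the 39 genes, and it moved from rank 10126 to rank 2220 of all genes by mean TPM. Pdk1, the form induced by HIF, was at 18.5, 25.6 and 26.7 TPM and at 14.4, 13.6 and 17.7 TPM, values that do not overlap, with a log2 fold change of -0.59 ± 0.256 (SE) that did not pass the test (adjusted p = 0.0912). Pdk4 made up 23.0%, 14% and 13.2% of the summed TPM of the pair in embryonic and 81.9%, 86.1% and 86.4% in adult cartilage. Pdk2 and Pdk3, outside the 39, were left out of this share. Pdk3 averaged 68.7 TPM in embryonic and 27.8 TPM in adult cartilage, and Pdk2 12.3 and 13.3 TPM. With them included, the share of Pdk4 would be lower at both stages.

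**Figure D3:**
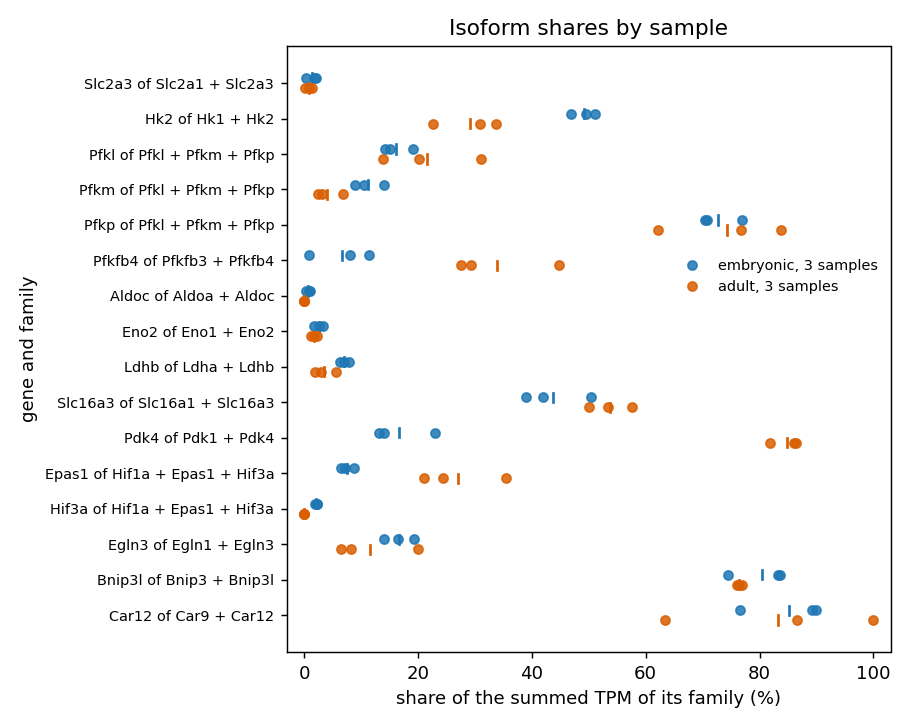
Share (horizontal axis, percent) of a gene in the summed TPM of its family in each sample; points are samples and short lines are the mean of 3 samples per stage. The adult shares lie above the embryonic ones for Pfkfb4, Pdk4 and Epas1, and below for Hk2, Pfkm, Aldoc, Ldhb and Hif3a.

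Shares within a family do not depend on how samples were scaled to each other. Of the 16 shares compared, the adult values lay above the embryonic ones for 3, below for 5 and overlapped for 8. With 3 samples against 3 the exact two-sided permutation test cannot go below p = 0.1, which these 8 separate shares had, and which became 0.2 after Benjamini-Hochberg adjustment over the 16.

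Among the HIF alpha subunits, 1 gene rose, 1 fell and 1 did not pass the test. Hif1a, the subunit tied to glycolytic genes, was at 374, 356 and 364 TPM in embryonic and 242, 354 and 384 TPM in adult cartilage (log2 fold change -0.19; adjusted p = 0.406). Only adult sample 1 lay away from the other 5, and without it the log2 fold change was 0.02. Epas1 (chr17:86753700-86833410, plus strand), which encodes HIF-2 alpha, was at 29.8, 34.7 and 25.7 TPM in embryonic and 133, 114 and 102 TPM in adult cartilage. The 3 adult values were all well above the embryonic ones, with a log2 fold change of 1.92 ± 0.180 (SE) and an adjusted p of 6.9e-05. Hif3a (chr7:17031507-17062427, minus strand), whose product can oppose the other two subunits, was at 8.12, 8.78 and 9.12 TPM in embryonic cartilage and was listed at 0, 0 and 0.159 TPM in adult cartilage (adjusted p = 0.000374).

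Hif1a was the most abundant subunit at both stages, by TPM. Epas1 made up 7.24%, 8.68% and 6.44% of the summed TPM of the 3 subunits in embryonic and 35.5%, 24.4% and 21.0% in adult cartilage. The sum itself was 399 to 412 TPM in embryonic and 375 to 487 TPM in adult cartilage, ranges that overlap.

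Of the 3 genes that sense oxygen or act on its signal, Egln1, which encodes the prolyl hydroxylase PHD2 and is itself a HIF target, rose. It was at 22.6, 30.4 and 24.4 TPM in embryonic and 49.7, 47.3 and 44.1 TPM in adult cartilage (log2 fold change 0.85 ± 0.193, SE; adjusted p = 0.00714). Egln3, which encodes PHD3, was at 4.85 to 5.39 TPM in embryonic cartilage and at 3.49, 4.21 and 11.0 TPM in adult cartilage, so that only adult sample 3 lay above the embryonic range (adjusted p = 0.854). Vhl, the subunit that recognises hydroxylated HIF alpha, was at 63.7, 70.3 and 34.4 TPM and at 25.5, 65.7 and 20.6 TPM. The ranges of the stages overlapped, with adult samples 1 and 3 below every embryonic sample, and the adjusted p of 0.214 became 0.0244 without adult sample 2.

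**Figure D4:**
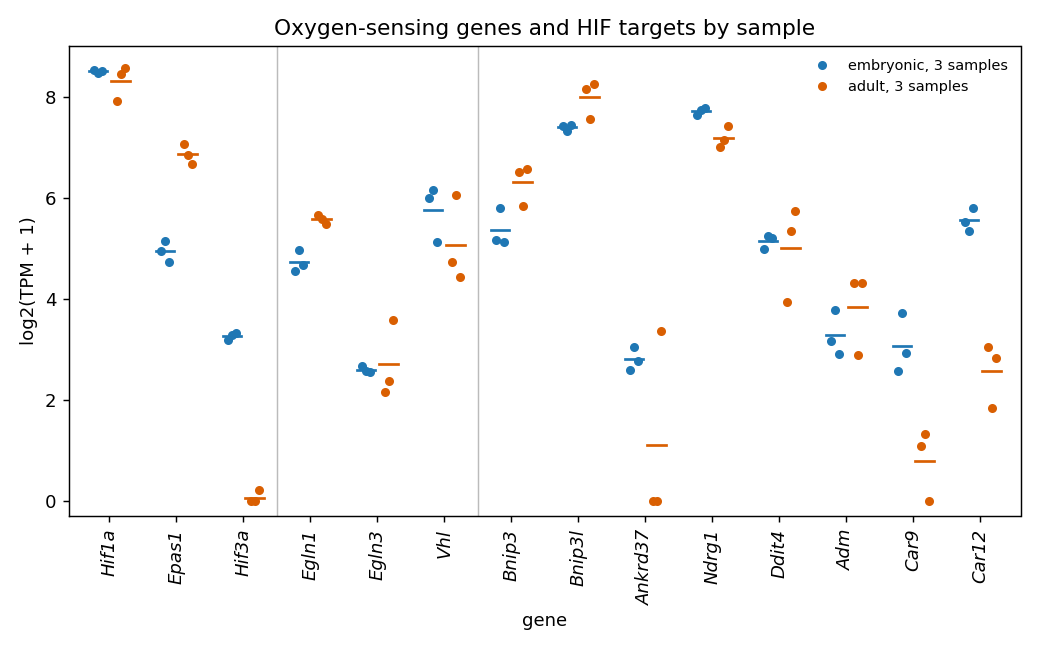
Level of the 14 oxygen-sensing genes and HIF targets in each sample, as log2(TPM + 1) on the vertical axis; points are samples, short lines are the mean of 3 samples, and grey lines part the HIF alpha subunits, the oxygen sensors with Vhl, and the targets. Epas1 and Egln1 are separate and higher in the adult, and Hif3a, Car9 and Car12 separate and lower. Ankrd37 has a single adult sample above the embryonic values, with the other adult samples at 0.

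The 8 HIF targets went different ways: 2 rose, 3 fell and 3 did not pass the test, where 23.9% of all genes tested rose and 21.4% fell. Bnip3 and Bnip3l, which encode mitophagy receptors on the mitochondrial surface, were the genes that rose. Bnip3 was at 34.9, 54.7 and 34.1 TPM in embryonic and 90.8, 56.2 and 94.7 TPM in adult cartilage (log2 fold change 0.95 ± 0.261, SE; adjusted p = 0.0170). Bnip3l was at 173, 159.9 and 174 TPM and at 288, 188 and 307 TPM (0.59 ± 0.186, SE; adjusted p = 0.0290). For both genes adult sample 2 was the lowest adult sample and lay just above the embryonic range, and that sample also had the lowest sum of leukocyte markers among the adult samples, 19.0 TPM against 194 and 121. Much of the 2 higher sums was S100a8 and S100a9, which were at 0 in adult sample 2. The part of leukocyte RNA in these values was not tested. The call for Bnip3 was lost without embryonic sample 1 or 3 or adult sample 1 or 3 (adjusted p = 0.0679, 0.0688, 0.0629 and 0.0592), and that for Bnip3l when any sample other than adult sample 2 was left out (0.0738 to 0.0948), under median-of-ratios scaling (0.0770) and without the trend (0.0889).

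The carbonic anhydrases on the cell surface, which hydrate CO2 and so help to carry acid away from the cell, fell the most among the targets. Car12 (chr9:66713686-66766845, plus strand) was at 45.3, 39.8 and 54.9 TPM in embryonic and 7.27, 2.60 and 6.10 TPM in adult cartilage, with a log2 fold change of -2.99 ± 0.355 (SE) and an adjusted p of 0.000253. Car9, a standard marker of hypoxic tissue, was at 5.01, 12.2 and 6.65 TPM in embryonic cartilage and was listed at 1.13, 1.5 and 0 TPM in adult cartilage (adjusted p = 0.00790). Ndrg1, a stress-responsive gene linked to differentiation, fell less: it was at 200.01, 214 and 219.6 TPM and at 128, 142 and 172 TPM (log2 fold change -0.53 ± 0.142, SE; adjusted p = 0.0152, and 0.0502 or 0.0581 without embryonic sample 2 or 3 and 0.0639 without the trend).

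The remaining 3 targets had SDs among the adult samples of 1.94 (Ankrd37), 0.94 (Ddit4) and 0.82 (Adm) on the log2 scale, larger in size than their log2 fold changes between stages. Ankrd37 was at 5.05, 7.31 and 5.85 TPM in embryonic cartilage and was listed at 0, 0 and 9.29 TPM in adult cartilage (adjusted p = 0.138, or 0.00215 without adult sample 3). Ddit4, which encodes REDD1, an inhibitor of the growth kinase mTORC1, was at 31.0 to 36.9 TPM in embryonic cartilage and at 14.5, 39.6 and 52.5 TPM in adult cartilage (adjusted p = 0.800). Adm, which encodes the vasodilator adrenomedullin, was at 6.53 to 12.8 TPM in embryonic cartilage and at 18.9, 6.43 and 18.9 TPM in adult cartilage (adjusted p = 0.354). Adult sample 3 was the highest adult sample for 19 of the 39 genes, or 48.7%, and for 37.2% of all genes tested. The median SD of the 39 genes on the log2 scale was 0.20 among the embryonic and 0.32 among the adult samples, against 0.26 and 0.35 over all genes tested.

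HIF complexes are known to bind DNA at a short core, ACGTG, and the 250 bases before each RefSeq start site (build GRCm38.p6) were searched for these letters or their reverse complement, CACGT. Of the 39 genes, 35 had an entry in the promoter table, and Slc2a3, Epas1, Bnip3l and Ndrg1 had none. The core stood before at least 1 start of 18 of the 35, or 51.4%, while 18.5% of all 27025 genes with an entry held it. The 2 sets are unlike: the 27025 include genes not expressed here, while the 39 all passed the level filter and include genes listed as HIF targets. The share among the genes tested was not computed. By call, it was held by 5 of 13 genes that were higher in the adult, 2 of 5 that were lower and 11 of 17 that did not pass the test. Part of these matches lie within the palindrome CACGTG, the E-box core that other factors also bind, which 6.02% of all entries hold. A match is a description of these letters and not a measured binding site, and Car12 had none in this window. The stretches around the core are shown for the called genes whose whole window was not found within an annotated transcript of the same gene. This selection was made after the values were seen. The Egln1 window overlaps the annotated gene in part, and the Aldoa window lies within the span of its gene. They are read 5′ to 3′ on the strand of the gene, with the core in capitals, and show that the letters next to the core differ from gene to gene.
Bnip3: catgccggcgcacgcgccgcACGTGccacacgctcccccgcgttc
Egln1: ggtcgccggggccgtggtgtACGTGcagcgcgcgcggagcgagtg
Aldoa: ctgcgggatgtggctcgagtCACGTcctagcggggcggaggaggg
Pgam1: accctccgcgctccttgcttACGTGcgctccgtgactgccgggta
Slc16a1: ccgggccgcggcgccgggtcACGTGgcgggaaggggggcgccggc
The first 4 belong to genes that were higher and the last to a gene that was lower in adult cartilage. The windows lie at chr7:138909589-138909633 (Bnip3, minus strand), chr8:124949298-124949342 (Egln1, minus strand), chr7:126799356-126799400 (Aldoa, minus strand), chr19:41911737-41911781 (Pgam1, plus strand) and chr3:104638445-104638489 (Slc16a1, plus strand). In Bnip3 and Slc16a1 the core is part of CACGTG.

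Other branches of glucose use were read from lists of genes outside the 39. The pentose phosphate pathway, which yields NADPH and ribose, rose in 6 of its 7 genes, all but Pgls, and none fell, with a median log2 fold change of 1.13 over the 7. The 6 were 85.7% of the list, against 23.9% of all genes tested. The count was 4 under quantile normalization, under median-of-ratios scaling, with no filter on low values, and without embryonic sample 1 or 3 or adult sample 3. Of the 6, Rpia was called in 5 of the 14 alternatives, with overlapping ranges and an adjusted p of up to 0.119, and Rpe in 8, with an adjusted p of up to 0.102. Its summed level was 253, 226 and 276 TPM in embryonic and 1589, 1534 and 1123 TPM in adult cartilage, a ratio of means of 5.63. G6pdx, the rate-limiting dehydrogenase that draws glucose into the pathway, was at 12.6, 18.0 and 21.8 TPM and at 112, 125 and 83.1 TPM (2.56 ± 0.247, SE; adjusted p = 7.94e-05). Pgd, the next dehydrogenase, was at 33.8, 27.0 and 39.2 TPM and at 499, 585 and 445 TPM (3.90 ± 0.173, SE; adjusted p = 1.13e-06). Taldo1, the transaldolase that returns carbon to glycolysis, was at 39.2, 40.9 and 76.8 TPM and at 680.3, 560.4 and 309 TPM (3.27 ± 0.330, SE; adjusted p = 0.000103). Every adult value of these 3 enzymes was above every embryonic one, and for each of them adult sample 3 was the lowest adult sample. Rpe, the ribulose phosphate epimerase, rose less than these 3 enzymes (1.13, adjusted p = 0.0308), and Rpia rose less again (0.93, adjusted p = 0.0369). Tkt rose by 1.06 (adjusted p = 0.000596), with separate ranges, and was called in all 14 alternatives.

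Among 17 glycogen genes tested, 5 rose and 1 fell (5 and 2 under median-of-ratios scaling), with a median of 0.60. The genes that rose were 29.4% of those tested and the gene that fell 5.88%, against 23.9% and 21.4% of all genes tested. Gys1, the glycogen synthase outside liver, was at 12.0, 16.9 and 13.7 TPM in embryonic and 61.2, 48.1 and 57.4 TPM in adult cartilage (1.90 ± 0.218, SE; adjusted p = 0.000205). Gbe1, the branching enzyme, was at 2.58, 6.13 and 10.5 TPM and at 60.8, 55.2 and 60.5 TPM (3.17 ± 0.398, SE; adjusted p = 0.000338). Pgm1, a phosphoglucomutase between glucose phosphates, and Gaa, the lysosomal glucosidase, rose by 1.30 and 0.99 on the log2 scale, and Pgm2 fell by 0.85. One more gene was lower (2 in all) without adult sample 3.

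**Figure D5:**
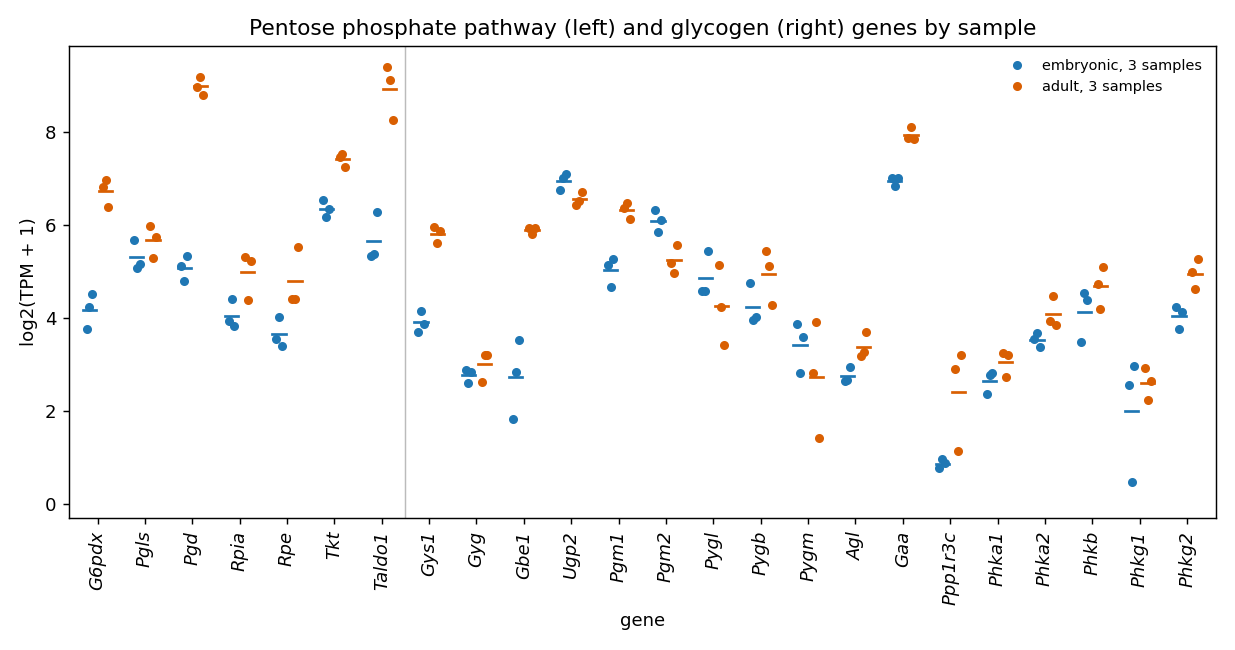
Level of the 7 pentose phosphate pathway genes (left of the grey line) and the 17 tested glycogen genes (right) in each sample, as log2(TPM + 1) on the vertical axis; points are samples and short lines are the mean of 3 samples per stage. Pgd, Taldo1, G6pdx, Gys1 and Gbe1 are separate and higher in adult cartilage, and 7 of the 17 glycogen genes overlap between the stages.

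Of 28 genes of the pyruvate dehydrogenase complex and the citric acid cycle, 6 rose and 1 fell, with a median of 0.24, and under median-of-ratios scaling 3 rose and 3 fell. The 6 were 21.4% of the list, below the 23.9% of all genes tested that rose, and the 1 was 3.57%, against 21.4%. Sdha, the flavoprotein of succinate dehydrogenase, was at 129, 121 and 142 TPM in embryonic and 285, 313 and 247 TPM in adult cartilage (1.10 ± 0.137, SE; adjusted p = 0.000325). Dlat, a subunit of the pyruvate dehydrogenase complex, Ogdh and Suclg1 rose by 1.15, 0.90 and 0.69 on the log2 scale. Pdk3, a further pyruvate dehydrogenase kinase, was the gene that fell, at 75.4, 55.0 and 75.8 TPM and at 16.6, 23.9 and 42.9 TPM (-1.36 ± 0.320, SE; adjusted p = 0.00833). The count of genes that rose was 3 without embryonic sample 2, and that of genes that fell was 2 without adult sample 1.

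In the list of other glycolysis and gluconeogenesis genes, 20 of 33 were tested, and 5 rose and 4 fell (3 and 4 after quantile normalization). These were 25% and 20% of the genes tested in the list, close to the 23.9% and 21.4% of all genes tested. Tigar, a phosphatase that lowers the activator of phosphofructokinase, was at 1.52, 0.396 and 2.03 TPM in embryonic and 4.01, 6.25 and 10.3 TPM in adult cartilage (1.75 ± 0.503, SE; adjusted p = 0.0203). Slc2a8 and Pfkfb2 rose by 1.46 and 0.99 on the log2 scale (adjusted p = 0.0344 and 0.0460) but were called in only 6 and 4 of the 14 alternatives. Pck2 rose by 0.73 (adjusted p = 0.00383) and was called in all 14. Slc2a9 was listed at 0, 0 and 2.48 TPM in embryonic and was at 3.34, 4.69 and 10.8 TPM in adult cartilage (adjusted p = 0.0253). Slc2a4, the insulin-responsive transporter of muscle and fat, was at 4.17, 4.73 and 4.24 TPM in embryonic cartilage and was listed at 0 in every adult sample (adjusted p = 0.00223). Pgam2, the muscle-type mutase, Slc16a7, a further monocarboxylate transporter, and Fbp1, an enzyme of gluconeogenesis, were lower in adult cartilage (adjusted p = 0.0335, 0.0156 and 0.0227), where Pgam2 and Fbp1 reached 0. The skeletal muscle markers were also at most 16.1 TPM in sum in adult cartilage, and their part in Slc2a4 and Pgam2 was not tested. The 5 genes that rose became 3, 1, 1 and 2 without embryonic sample 1 or 2 or adult sample 2 or 3, and the 4 that fell became 1 and 2 without embryonic sample 2 or 3.

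Of 16 other components of the HIF pathway, 2 rose and 3 fell, with a median of -0.22 (2 and 5 under median-of-ratios scaling). Both shares, 12.5% and 18.8%, were below those of all genes tested, 23.9% and 21.4%. Egln2, which encodes the prolyl hydroxylase PHD1, was at 32.0, 31.8 and 25.5 TPM in embryonic and 57.4, 43.4 and 47.4 TPM in adult cartilage (0.71 ± 0.196, SE; adjusted p = 0.0170). Arnt2, a partner subunit of HIF alpha, rose by 1.36 from a low level (1.03 to 3.72 TPM in embryonic cartilage). Siah2, a ubiquitin ligase that acts on prolyl hydroxylases, was at 63.0, 67.4 and 65.9 TPM and at 31.0, 42.0 and 28.8 TPM (-0.95 ± 0.189, SE; adjusted p = 0.00384), while the chaperone Hsp90aa1 and the coactivator Crebbp fell by 0.50 and 0.40. In place of these counts, 1 rose when any of the 6 samples was left out, and 1 fell without embryonic sample 3.

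Of the 34 further HIF targets tested, 13 rose and 7 fell, with a median of 0.24. Pfkfb2 is in this list and in that of other glycolysis genes, and its rise is counted in both. The genes that rose were 38.2% of the list, against 23.9% of all genes tested, and those that fell were 20.6%, close to the 21.4% of all genes tested. Nos2, the inducible nitric oxide synthase, was listed at 0, 0 and 0.392 TPM in embryonic cartilage and was at 124, 147 and 123 TPM in adult cartilage (adjusted p = 1.06e-06). Hmox1, the heme oxygenase, which also answers to oxidative stress, was at 417, 402 and 455 TPM and at 3589, 3579.8 and 3660.4 TPM (3.09 ± 0.111, SE; adjusted p = 4.13e-07). Both genes were at nearly the same level in the 3 adult samples, whose leukocyte marker sums ranged from 19.0 to 194 TPM, and the part of leukocyte RNA in these values was not tested. Angptl4, a secreted inhibitor of lipoprotein lipase, and Bhlhe41, a repressor of the circadian clock, rose by 3.08 and 2.97 on the log2 scale. Igfbp3, a carrier of insulin-like growth factors, was at 123, 90.2 and 116 TPM and at 4.33, 5.29 and 1.78 TPM (-4.59 ± 0.333, SE; adjusted p = 1.75e-05). Stc1, a secreted glycoprotein, was at 49.7, 52.5 and 46.2 TPM in embryonic cartilage and was listed at 0, 0.838 and 2.23 TPM in adult cartilage (adjusted p = 6.74e-05). Flt1, a receptor for vascular endothelial growth factor, and Tgfb3 fell by 3.47 and 2.37 on the log2 scale. Vegfa, which encodes a form of that growth factor, fell by 2.09 (adjusted p = 3.82e-05). Flt1 is also expressed by endothelial cells, whose 8 markers summed to 10.9 to 42.3 TPM in embryonic and 4.40 to 14.2 TPM in adult cartilage. Of the 8, Tek was lower (9.21 to 19.0 and 0.121 to 0.889 TPM), 3 did not pass the test and 4 were not tested. Pecam1, among those 3, had every adult value above every embryonic one (1.29 to 1.75 and 2.79 to 6.87 TPM, adjusted p = 0.123). The part of endothelial cells in Flt1 was not tested.

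Near-identical copies could draw reads from 9 of the 39 genes: 65 copies of Gapdh, 4 of Bnip3, 3 of Eno1, 2 each of Pgk1 and Ldha, and 1 each of Pgam1, Pkm, Ldhb and Bnip3l were found in the annotation. Of these only Eno1b, a copy of Eno1, has a row of its own among the measured genes, at 1.61 TPM in embryonic sample 2, 8.75 TPM in adult sample 2 and 0 in the other 4. The authors estimated levels with RSEM, which uses expectation maximization, on RefSeq annotations. Which of these copies that reference held is not given in the sources used here, and the levels of these 9 genes are uncertain to that extent.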

How the data were processed

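RNA was isolated from 3 embryonic and 3 adult sorted samples; the labels name a Kapa mRNA-Seq kit, the methods Nugen Ovation cDNA with a Kapa LTP library. The authors estimated TPM with RSEM against GRCm38 (mm10) and RefSeq annotations and deposited log2(TPM + 1) values. TPM sums to 1000000 in every sample and keeps no read depth, so no counting error is given. A gene's TPM also depends on the share of the library that other genes take.

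Of 22032 Ensembl identifiers, 21902 had a symbol. The deposited log2 values were tested with limma 3.58.1 (R 4.3.3; trended eBayes, stage as the only term, two-sided) over the 13125 genes that averaged 1 TPM or more, with Benjamini-Hochberg adjustment over all of them and a threshold of 0.05; the fit was tested on simulated data. Fold changes with a pseudocount of 1 understate those of low genes. The study's EBSeq needs counts and was not used. The members and lists were chosen with earlier results of these data known. Genes outside the 39 were named where they passed the threshold with separate ranges, up to 4 per direction and list, by size of change. Some further genes, such as Rpia (overlapping ranges), Tkt, Pck2 and Vegfa, are named beyond this rule. Coordinates are GENCODE M21; copies were found with BLAST+ 2.17.0 at 95% identity over 90% of the coding sequence. No protein sequences were used here. The alternatives and their effect are given in the closing section.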

Additional observations from a re-analysis of the deposited data

How the results depend on the processing

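Of the log2 fold changes of the 39 genes over all alternatives, 483 kept their direction and side of the threshold, 39 lost and 8 gained significance, and 11 changed sign; the cause was not tested. No gene that passed the test changed sign. Leaving out each sample in turn gave 10 to 13 genes higher and 5 to 8 lower, and a median log2 fold change of -0.25 to 0.31. With a mean of at least 5 TPM required, 3 were lower, since fewer genes were tested. Sign changes were all in genes that did not pass the test: Slc2a3 (-0.88 to 0.10 with a sample left out, above 0 without adult sample 1), Pgk1 (0.06 with quantile normalization, 0.05 without the 20 highest genes, and -0.41 to 0.28 with a sample left out, above 0 without embryonic sample 1 or 3 or adult sample 1), Hif1a (0.02 without adult sample 1), Egln3 (-0.04 with quantile normalization, -0.01 with median-of-ratios scaling and -0.32 without adult sample 3) and Ddit4 (-0.50 to 0.39 with a sample left out, above 0 without adult sample 1). Differences in share changed sign for Pfkp (-3.23 percentage points without adult sample 2, to 7.56 without adult sample 1) and Car12 (-10.3 to 8.01, above 0 without embryonic sample 1 or 3 or adult sample 2).

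Other glycolysis and gluconeogenesis genes higher in the adult were 3 with a pseudocount of 0.1, with no filter, with a mean of at least 5 TPM or with quantile normalization, and 1 to 5 with a sample left out; those lower were 0 with a mean of at least 5 TPM and 1 to 4 with a sample left out. Pyruvate dehydrogenase and citric acid cycle genes higher were 3 with median-of-ratios scaling or without a trend and 3 to 6 with a sample left out; those lower were 3 with median-of-ratios scaling and 1 to 2 with a sample left out. Glycogen genes lower were 2 with median-of-ratios scaling and 1 to 2 with a sample left out. Other HIF components higher were 1 with a pseudocount of 0.1, with no filter, with quantile normalization or with any sample left out; those lower were 5 with median-of-ratios scaling, 1 without a trend and 1 to 3 with a sample left out. All genes higher ranged from 2441 to 2796 and all genes lower from 2162 to 2761 with a sample left out.

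With the replicate number as a replicate block, 14 of the 39 genes were higher and 6 lower, 2 other glycolysis genes were lower, and 1 other HIF component was higher and 1 lower. Same-numbered samples did not deviate together (correlations of -0.00884, -0.0169 and -0.0223 across genes), so these values gave no sign of pairing by number. They cannot show whether same-numbered samples shared a preparation or a sequencing run. TPM keeps no depth, so sampling error of low genes such as Hif3a, Aldoc and Car9 cannot be given.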
